A study of Homo sapiens with 8 samples.

Results

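The 4 HOX gene clusters were examined in H3K27me3 ChIP-seq island lists of 2 human lymphoma B-cell lines. The members were 38 HOX genes, HOXA2, HOXA3, HOXA4, HOXA5, HOXA6, HOXA7, HOXA9, HOXA10, HOXA11 and HOXA13, HOXB1 to HOXB9 and HOXB13, HOXC4 to HOXC6 and HOXC8 to HOXC13, and HOXD1, HOXD3, HOXD4 and HOXD8 to HOXD13. Each cluster was taken as a window of hg19. HOXA spanned chr7:27120001-27260000, HOXB chr17:46600001-46820000, HOXC chr12:54320001-54460000 and HOXD chr2:176940001-177060000. All islands that overlapped a window by at least 1 bp were kept, which gave 36 of 58144 islands in LY19WT and 39 of 47432 in LY19Y646F. Flanks of 200 kb on either side were read in the same way. The rule uses positions and no island value.

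LY19WT carries wild-type EZH2, and LY19Y646F constitutively expresses EZH2-Y646F from a CMV promoter. Both are immortalized lymphoma B-cell lines used at passage 10 to 15 without treatment. Each line had 3 ChIP libraries, made with an antibody to H3K27me3, and 1 input library. Islands were called after the 3 ChIP libraries were merged, so each line has 1 list. No value below carries a spread over replicates, and differences between lines could not be tested. The labels do not say whether either line is a single clone, and ChIP islands hold no expression values with which to check the cell type. Islands of LY19WT held 37556030 ChIP and 4949411 input reads, and those of LY19Y646F 17410034 and 3527109.

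HOX genes encode homeodomain transcription factors that set positional identity along the body axis. They lie in tight clusters in which gene order follows the order of expression along the embryo, and genes of the same number in different clusters are paralogues. Where HOX genes are silent, their clusters are classical targets of Polycomb repressive complex 2, whose catalytic subunit EZH2 writes H3K27me3. In blood, genes of the HOXA and HOXB clusters are active in stem and progenitor cells and are turned down as lymphocytes mature. The tyrosine changed in EZH2-Y646F lies in the catalytic SET domain of EZH2 and is a recurrent site of mutation in B-cell lymphoma.

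In the RefSeq gene table (GRCh38.p14) the order of the genes with rising position runs from HOXA2 to HOXA13, from HOXB1 to HOXB13, from HOXC13 to HOXC4 and from HOXD13 to HOXD1. The nearest protein-coding genes outside the HOX family are SKAP2 and EVX1 at HOXA, SKAP1 and TTLL6 at HOXB, CALCOCO1 and SMUG1 at HOXC, and EVX2 and MTX2 at HOXD. EVX1 and EVX2 encode homeodomain factors of the even-skipped family. The gene table and the islands are on different builds, so islands were not assigned to single genes, and values are given for cluster windows.

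Promoters of HOX genes are rich in CpG dinucleotides, the sequence feature most often linked with recruitment of Polycomb complexes in mammals. RefSeq promoter sequences (GRCh38.p14) matched 20 of the 38 genes, with 26 different sequences of 300 bases, of which 16 belonged to HOXA and 8 to HOXD. The ratio of observed to expected CpG, the number of CG times the length over the product of the numbers of C and G, had a median of 0.855 over these 26 and of 0.578 over all 34796 different promoters. It was at least 0.6 in 21 of 26, or 80.8%, against 48.8% of all promoters. Only the letters CG were searched, which read the same on both strands and occur at least once in 96.0% of all promoters. The medians were 0.814 in HOXA and 0.869 in HOXD. HOXB and HOXC had 1 sequence each and cannot be compared.

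The 250 bases before the start of the genes at the ends of the clusters, as far as matched, are shown to let the CpG content be read directly, 5′ to 3′ on the strand of the gene with every CG in capitals. HOXA9 and HOXD4 are added as the highest and lowest ratio among genes with 1 promoter, 1.27 and 0.244.
HOXA2, chr7:27102684-27102933, minus strand, GRCh38.p14: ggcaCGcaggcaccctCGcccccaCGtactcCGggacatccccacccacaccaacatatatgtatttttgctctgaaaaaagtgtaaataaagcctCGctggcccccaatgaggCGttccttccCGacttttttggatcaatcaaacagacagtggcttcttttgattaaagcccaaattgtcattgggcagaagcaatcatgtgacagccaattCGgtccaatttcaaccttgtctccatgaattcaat
HOXA13, chr7:27200092-27200341, minus strand, GRCh38.p14: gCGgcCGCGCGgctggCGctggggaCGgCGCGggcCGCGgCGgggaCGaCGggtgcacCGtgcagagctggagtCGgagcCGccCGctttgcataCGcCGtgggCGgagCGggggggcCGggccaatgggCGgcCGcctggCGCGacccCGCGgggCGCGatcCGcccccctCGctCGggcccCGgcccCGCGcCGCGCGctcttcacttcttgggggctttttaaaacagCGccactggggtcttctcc
HOXB1, chr17:48531012-48531261, minus strand, GRCh38.p14: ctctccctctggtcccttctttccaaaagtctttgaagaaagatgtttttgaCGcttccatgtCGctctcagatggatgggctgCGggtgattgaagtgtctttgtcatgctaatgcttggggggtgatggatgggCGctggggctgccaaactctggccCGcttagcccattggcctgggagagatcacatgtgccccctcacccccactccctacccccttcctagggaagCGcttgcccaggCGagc
HOXC4, chr12:54016638-54016887, plus strand, GRCh38.p14: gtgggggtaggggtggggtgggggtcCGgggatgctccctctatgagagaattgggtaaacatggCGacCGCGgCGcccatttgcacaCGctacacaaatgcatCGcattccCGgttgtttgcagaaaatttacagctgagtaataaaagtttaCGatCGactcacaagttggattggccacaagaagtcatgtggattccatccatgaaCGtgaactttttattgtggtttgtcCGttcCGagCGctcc
HOXD13, chr2:176092471-176092720, plus strand, GRCh38.p14: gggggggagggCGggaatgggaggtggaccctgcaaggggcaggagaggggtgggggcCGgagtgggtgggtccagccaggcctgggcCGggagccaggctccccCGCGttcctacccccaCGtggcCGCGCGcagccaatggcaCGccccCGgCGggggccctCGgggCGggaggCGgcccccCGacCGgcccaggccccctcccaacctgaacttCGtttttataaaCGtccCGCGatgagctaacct
HOXD1, chr2:176188418-176188667, plus strand, GRCh38.p14: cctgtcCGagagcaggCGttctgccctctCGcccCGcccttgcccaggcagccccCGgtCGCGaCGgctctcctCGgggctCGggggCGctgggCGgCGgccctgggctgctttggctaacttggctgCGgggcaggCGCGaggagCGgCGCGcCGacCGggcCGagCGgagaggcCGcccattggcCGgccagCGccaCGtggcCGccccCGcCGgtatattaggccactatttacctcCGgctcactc
HOXD4, chr2:176151300-176151549, plus strand, GRCh38.p14: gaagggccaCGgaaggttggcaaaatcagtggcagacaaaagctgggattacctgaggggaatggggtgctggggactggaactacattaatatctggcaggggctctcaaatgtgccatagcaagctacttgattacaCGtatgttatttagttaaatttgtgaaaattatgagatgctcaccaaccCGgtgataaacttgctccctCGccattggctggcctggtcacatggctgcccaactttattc
HOXA9, chr7:27165538-27165787, minus strand, GRCh38.p14: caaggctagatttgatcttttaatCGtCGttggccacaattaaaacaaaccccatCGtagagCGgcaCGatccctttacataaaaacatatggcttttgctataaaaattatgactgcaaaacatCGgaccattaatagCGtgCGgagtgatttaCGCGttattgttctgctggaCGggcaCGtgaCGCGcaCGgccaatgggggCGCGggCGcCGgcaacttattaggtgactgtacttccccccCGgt
HOXA13 held 40 CG in the bases shown and HOXD1 31, while HOXD4 held 4 and HOXB1 7.

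The clusters also carry microRNA genes, which were chosen for display after the island values had been seen. Those of the miR-196 family lie in HOXA, HOXB and HOXC and share the seed AGGUAGU, bases 2 to 8, in capitals below, while the mature sequences of miR-196a-5p and miR-196b-5p differ. The mature sequence of miR-10a-5p, from HOXB, carries another seed.
hsa-miR-196b-5p (HOXA): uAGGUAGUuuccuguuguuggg
hsa-miR-196a-5p (HOXB and HOXC): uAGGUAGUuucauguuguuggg
hsa-miR-10a-5p (HOXB): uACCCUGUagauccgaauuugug

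In both lines HOXB and HOXC were covered by islands over more than 50% of their length, and HOXA and HOXD over less. Islands took up 63.5% of HOXB in LY19WT and 83.6% in LY19Y646F, and of HOXC 75.6% and 83.3%. They took up 6.43% and 28.7% of HOXA, and 0% and 11.7% of HOXD. All 4 windows were thus covered more in LY19Y646F, by 22.3 percentage points at HOXA, 20.1 at HOXB, 7.71 at HOXC and 11.7 at HOXD, whereas the share of all autosomes covered was lower in LY19Y646F, at 13.7% against 19.8%. HOXA lay below its chromosome in LY19WT, which was covered to 23.4%, and above it in LY19Y646F, at 12.9%. Over the 4 windows together 254.6 of 620 kb were covered in LY19WT and 354.8 kb in LY19Y646F.

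**Figure D1:**
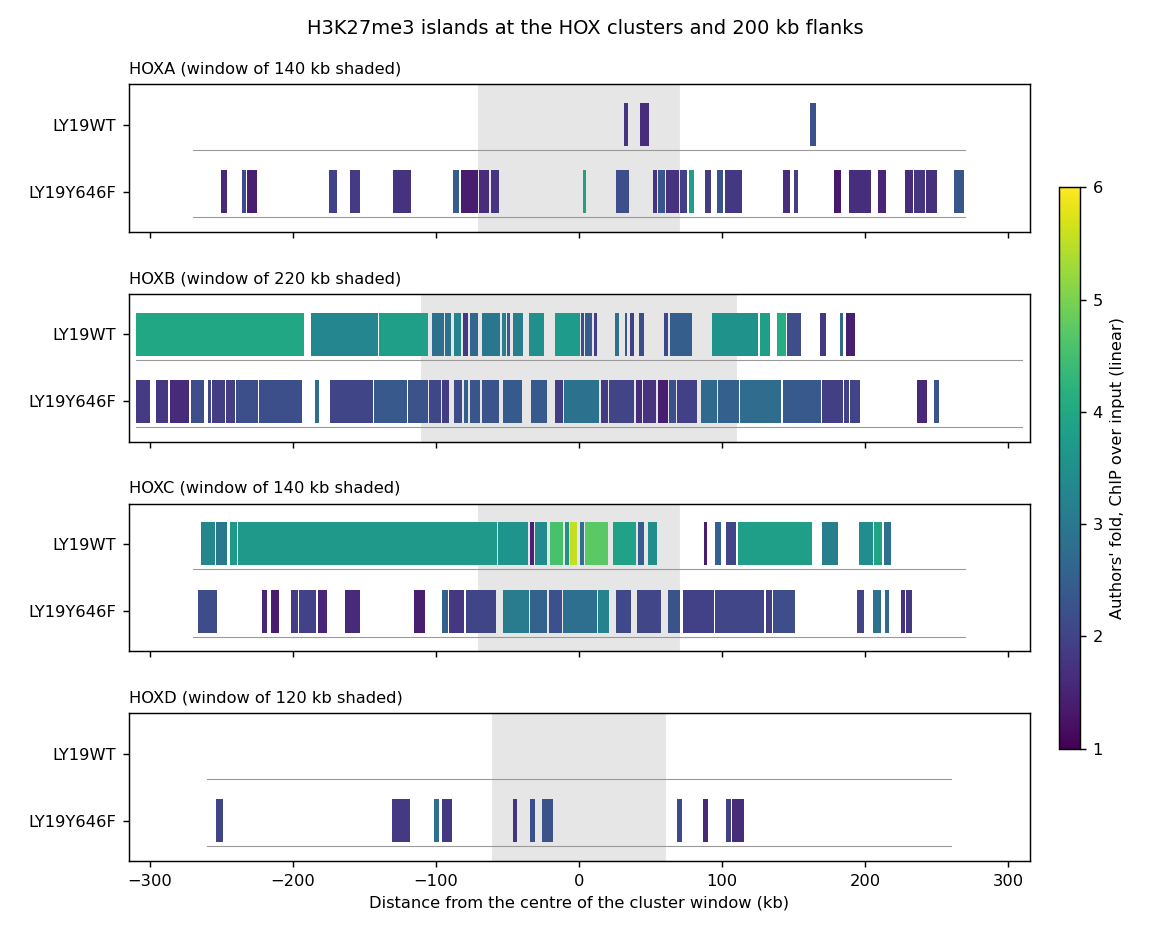
Islands of each line at the 4 clusters, drawn by distance in kb from the centre of the cluster window, with the window shaded and flanks of 200 kb on either side. Colour gives the authors' linear fold of ChIP over input. HOXB and HOXC are mostly filled in both lines, HOXA holds 2 islands in LY19WT and 7 in LY19Y646F, and the HOXD row of LY19WT is empty.

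Among autosomal windows of the same length, cover of at least 50% was uncommon. It was reached by 17.7% of 140 kb windows in LY19WT and 9.39% in LY19Y646F, and by 4.75% in both lines, as at HOXC. Of 220 kb windows 16.7% in LY19WT, 8.26% in LY19Y646F and 4.01% in both reached it, as HOXB did. For 120 kb windows, the length of HOXD, the shares were 17.8% and 9.63%. In LY19Y646F 1.45% of 140 kb windows were covered at least as much as HOXC and 0.868% of 220 kb windows at least as much as HOXB. In LY19WT these shares were 7.37% and 10.5%. HOXA stood near the middle in LY19WT, where 44.7% of windows were covered at least as much, and higher in LY19Y646F, at 19.3%.

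Across the genome this direction was the less common. Of 140 kb windows, 29.3% were covered more in LY19Y646F and 38.3% more in LY19WT. Windows of 220 and 120 kb were covered more in LY19Y646F in 32% and 28% of cases. With 4 clusters, 1 list per line and no replicates, the count of 4 of 4 has no test.

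**Figure D2:**
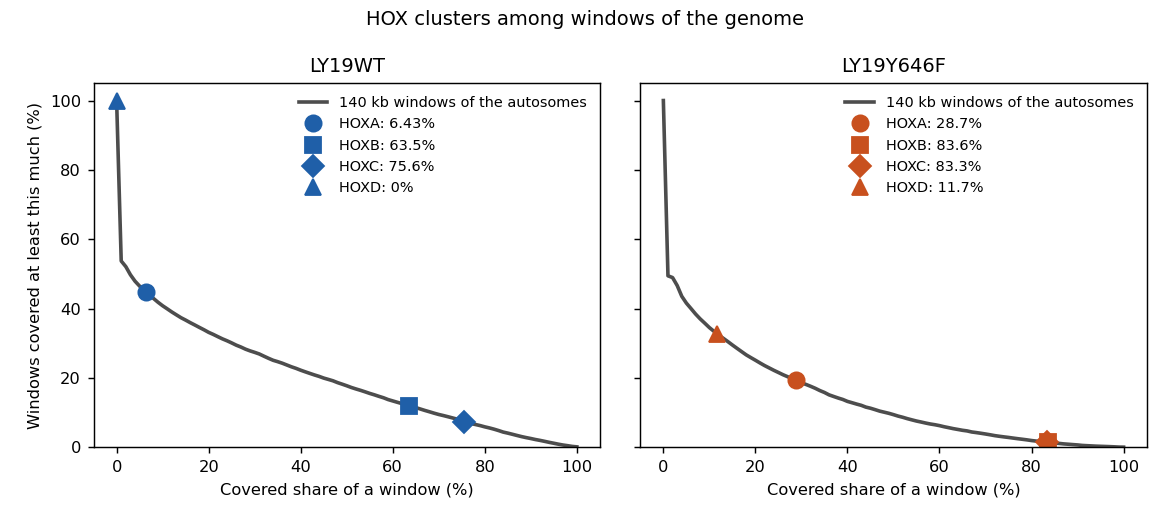
Share of the 19932 autosomal 140 kb windows, in percent, that are covered by islands at least as much as the value on the x axis, for each line. Symbols place the 4 clusters at their own covered share on that curve, although HOXB and HOXD windows measure 220 and 120 kb. HOXB and HOXC lie in the right tail in both lines, and HOXD sits at 0% in LY19WT.

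HOXB held islands in every 20 kb step of the window in both lines, and the lines parted in its upper part. In LY19WT 21 stretches without islands added up to 80.2 of 220 kb. In 20 kb steps, LY19WT cover had a median of 69% and ran from 26% to 87%, and LY19Y646F cover had a median of 86% and ran from 68% to 100%, with no empty step in either line. Over the first 100 kb, from 46600001 to 46700000 on chromosome 17, cover was 73% in LY19WT and 74.8% in LY19Y646F. The Jaccard index, which divides the length under islands of both lines by that under islands of at least 1, was 0.794. From 46720001 to 46800000 it was 40% and 87.5%, with an index of 0.417. These stretches were chosen after their values had been seen. Enrichment over input in the first stretch was 3.32-fold in LY19WT and 2.35-fold in LY19Y646F, and in the second 2.34-fold and 2.13-fold. These folds sum whole islands that touch a stretch. The LY19Y646F island from 46699601 to 46723600, of fold 2.89, counts in full in both stretches. The LY19WT island from 46570201 to 46604400 counts in full in the first, although it starts below the window. So does the LY19WT island from 46692801 to 46710400, most of which lies beyond the first stretch. Their folds, 3.80 and 3.73, lie above the 3.32 of that stretch and raise it. LY19WT islands of the second stretch were both sparser and weaker than those of the first. In LY19Y646F the second stretch was covered more and its fold was lower, but the shared island blurs the size of that difference. Input density of the second stretch was near the autosomal median of 8.41 and 8.42 reads per kb in both lines, at 8.03 and 8.45. The 3 longest stretches without a LY19WT island lay in the upper part of the window. They measured 14 kb from 46755201, 13.4 kb from 46789201 and 12.6 kb from 46722601. No uncovered part of LY19Y646F exceeded 6.4 kb.

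Of the LY19WT islands that overlapped HOXB, the strongest lay across the ends of the window and in its middle. The island from 46570201 to 46604400, which entered from the lower flank, held 3164 ChIP and 271 input reads at an authors' fold of 3.80 (95% Clopper-Pearson interval 3.36 to 4.32, counting error only, as for all intervals given here). The island from 46692801 to 46710400 had a fold of 3.73 (3.15 to 4.45) and that from 46802601 to 46835400 one of 3.56 (3.15 to 4.03). The first and last of these islands reach outside the window, and their folds include reads from there. The 3 folds lay at the 97.2nd, 96.9th and 95.6th percentile of the LY19WT list. The lowest fold among the 22 islands of the window was 1.85 (1.24 to 2.85), at 46629001 to 46632000. In LY19Y646F the 20 islands ran from 1.43, at 46764801 to 46771800, to 2.89 (2.45 to 3.42), at 46699601 to 46723600, the 95.2nd percentile of its list. Of the 22 islands 16 lay above the LY19WT list median, as 49.9% of the list does, and of the 20 islands 14 lay above that of LY19Y646F, as 50% of the list does. The strongest LY19Y646F island overlapped the middle of the 3 strong LY19WT islands. A stretch of 4.6 kb from 46670401 and one of 5.4 kb from 46687401 were free of islands in both lines.

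The mark at HOXB did not stop at the window. Of the lower flank, towards SKAP1, 97.1% lay under LY19WT islands and 84.3% under those of LY19Y646F. The widest island there, of 143.4 kb from 46374401 to 46517800 in LY19WT, reached past the flank and had a fold of 3.99. The upper flank, towards TTLL6, was covered to 25.4% and 46.3%. Both flanks together gave 61.2% and 65.3%, against 63.5% and 83.6% of the window. Whether HOXB stood above its flanks in LY19WT depended on their length, since flanks of 100 kb were covered to 72.5% in LY19WT and 81.1% in LY19Y646F.

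HOXC had the highest cover and fold of the 4 clusters in LY19WT, while in LY19Y646F its cover was close to that of HOXB. In LY19WT its 12 islands had a median authors' fold of 3.57, against 2.28 over the list, and 11 of 12 lay above that list median. The strongest, from 54383401 to 54388400 on chromosome 12, held 647 ChIP and 38 input reads, or 129 ChIP reads per kb, at a fold of 5.54 (3.99 to 7.90), the 99.7th percentile. Its neighbours from 54394001 to 54410200 and from 54369801 to 54378400 had folds of 4.72 (3.86 to 5.83) and 4.54 (3.51 to 5.96). The one weak island, from 54355401 to 54358600, had a fold of 1.46 (1.02 to 2.16). In LY19Y646F all 9 islands lay above the list median of 1.90. They ran from 2.03, in the island from 54310801 to 54332000, to 3.24 (2.35 to 4.57), at 54403201 to 54410800. The strongest LY19Y646F island overlapped the LY19WT island of fold 4.72.

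At HOXC most of the covered length was shared, and the lines differed at the upper end of the window and in the lower flank. The index of shared cover was 0.754 at HOXC and 0.666 at HOXB, against 0.270 and 0.364 on their chromosomes and 0.245 over all autosomes. The index rises with cover, which was far higher in these windows, and the index that cover alone would give was not computed. LY19Y646F islands covered 90.4% of the LY19WT length at HOXC, against 83.3% of the window. LY19WT islands covered 82.0% of the LY19Y646F length, against 75.6% of the window. In LY19WT the last 15.6 kb of the window, from 54444401, held no island, whereas LY19Y646F islands reached the window's end. Islands of LY19WT resumed in the upper flank at 54477401, so this was a gap and not an end of cover. In the lower flank, towards CALCOCO1, the widest LY19WT island spanned 181.2 kb from 54151201 to 54332400 and entered the window, at a fold of 3.69. LY19Y646F had 11 islands over the same flank, and cover was 95.5% and 44.3%. The upper flank, towards SMUG1, was covered to 48.9% and 47.1%. Both flanks together gave 72.2% and 45.7%, against 75.6% and 83.3% of the window. With flanks of 100 kb they gave 83.1% and 59.1%, which puts the LY19WT window below its flanks, and with flanks of 500 kb 35.6% and 33.9%.

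Single island edges coincided in a minority of cases in LY19WT. Of 42 LY19WT edges in HOXB, 15 lay within 1 kb of a LY19Y646F edge of the same kind, or 35.7%, and of 23 in HOXC 9 did, or 39.1%. Over all LY19WT islands that overlap LY19Y646F the share was 28.4%. Seen from LY19Y646F, 15 of 36 edges of overlapping islands in HOXB and 9 of 15 in HOXC had such a partner, against 24.1%. These shares rise with the density of edges, which was higher in both windows than over all autosomes. LY19Y646F had 38 edges in the 220 kb of HOXB and 16 in the 140 kb of HOXC, against 94750 over 2791.8 Mb. The share that edge density alone would give was not computed.

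**Figure D3:**
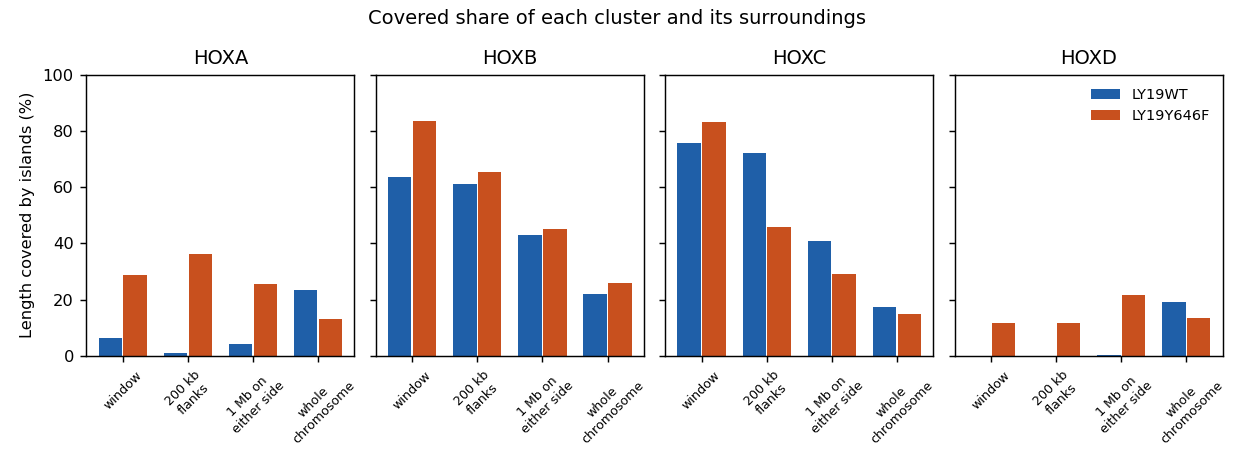
Length covered by islands, in percent, of each cluster window, of the 200 kb flanks, of 1 Mb on either side and of the whole chromosome, with 1 bar per line. Bars carry no error because each line has 1 merged list. At HOXB and HOXC cover falls from the window to the chromosome in both lines. At HOXA the LY19WT window is below its chromosome, and at HOXD the window is below it in both lines.

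HOXA held 2 islands in LY19WT. The first, from 27221601 to 27224200 on chromosome 7, was called on 141 ChIP reads against 26 of input, at a fold of 1.76 (1.16 to 2.80). The second, from 27232601 to 27239000, had 452 and 90 reads and a fold of 1.63 (1.301 to 2.07). Both folds were below the list median, at the 16.8th and 10.3rd percentile, and 0 of 2 islands passed it. Neither island was left when only the LY19WT islands of lowest p-value were kept, down to the length that LY19Y646F islands cover. Upwards of the window there was 1 further island within 200 kb, and none below it for 522.8 kb.

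In LY19Y646F, HOXA held 7 islands, which lay mostly towards the ends of the window. They shared 2.6 kb with those of LY19WT, out of 40.2 kb and 9 kb covered, and the index of shared cover was 0.0558, against 0.198 on the chromosome. This index too depends on cover, which was 6.43% of the window in LY19WT. Of the 7 islands 3 lay above the list median fold. In 20 kb steps cover was 61% at the lower end, 0% in the next 2 steps, then 12%, 20% and 25%, and 83% at the upper end. The strongest island, from 27192601 to 27195000, rested on 111 ChIP and 11 input reads, with a fold of 3.85 (2.07 to 7.94). Its input density of 4.58 reads per kb was the lowest among the LY19Y646F islands of all 4 windows, and its ChIP density of 46.2 reads per kb was close to that of its neighbours, which had 39.2 to 44.2. A stretch of 58.8 kb from 27133801 to 27192600 and one of 21 kb from 27195001 to 27216000 held no island in either line. The flanks were covered to 36.2%, more than the window, and 1.05% in LY19WT. Flanks of 500 kb were covered to 28.0% in LY19Y646F, slightly less than the window. With the window shortened by 10 kb at each end, LY19Y646F cover was 19.0% in place of 28.7%.

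Input was high around HOXA in LY19WT. Over the 14 LY19WT islands of the window and 1 Mb on either side, the median input density was 12.6 reads per kb, or 1.50 times the autosomal median of the line, and over the 65 LY19Y646F islands it was 1.04 times. At the other clusters this ratio lay between 0.948 and 1.02 in both lines. At HOXD in LY19WT, however, it rested on 1 island, which lay 759.8 kb above the window. The LY19WT list holds no input value within the HOXD window or its 200 kb flanks. Because calling compares ChIP with scaled input, input of this height bears on which islands pass, and its part in the low LY19WT cover of HOXA was not tested.

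HOXD held no LY19WT island, in the window or in 200 kb on either side. Of 120 kb windows 13.3% had islands in LY19Y646F and none in LY19WT, and of 520 kb windows, the length of HOXD with its flanks, 29.3% had no LY19WT island and 10.9% had islands in LY19Y646F alone. The empty stretch was much longer than the cluster. It ran from 175386801 to 177819800 on chromosome 2, or 2433 kb, and 109 of the 57832 gaps between LY19WT islands on the autosomes, 0.188%, were at least as long. That share counts gaps and not their length, so it does not give the share of the autosomes that lies in such stretches. Gaps that span centromeres or unassembled sequence were not set apart. LY19Y646F had 90 islands in it, which covered 21.3%. The LY19WT islands that bounded it had folds of 1.83 and 2.10 and input densities of 9.58 and 8 reads per kb, near the autosomal median of 8.41. A stretch without islands can hold the mark below the threshold of calling, and some islands may be missing from the lists as read here.

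The 3 LY19Y646F islands of HOXD were short and lay in the lower part of the window, the side of HOXD13. The island from 176953801 to 176956800 had 137 ChIP and 30 input reads and a fold of 1.74 (1.17 to 2.68). The island from 176965601 to 176969000 had 145 and 25 reads and a fold of 2.21 (1.44 to 3.53). The widest, of 7.6 kb from 176974201 to 176981800, had 284 and 48 reads and a fold of 2.26 (1.66 to 3.13). From 176981801 the remaining 78.2 kb of the window held no island in either line. Cover of the flanks, 11.7%, was close to that of the window, but flanks of 100 and 500 kb were covered to 20.9% and 19.98%, more than the window.

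Levels of the mark, summed over the islands of a window, were higher at HOXB and HOXC than at HOXA, and than at HOXD in LY19Y646F, but medians of single islands did not all follow. The median ChIP density in LY19WT was 62.4 reads per kb at HOXA and 61.9 at HOXB, and the median fold in LY19Y646F was 2.21 at HOXD and 2.18 at HOXB. Summed over whole islands, LY19WT ChIP density was 99.7 reads per kb at HOXC, 80.1 at HOXB and 65.9 at HOXA, against a list median of 57.3. The HOXC sum includes the 181.2 kb island that lies mostly below the window. In LY19Y646F the densities were 49.4 at HOXC, 48.6 at HOXB, 41.2 at HOXA and 40.4 at HOXD, against 41.8. The range over single islands was 45.5 to 129 in LY19WT and 37.4 to 55.7 in LY19Y646F. These are raw densities, and the LY19Y646F list held fewer ChIP reads. Folds of the whole list were also closer together in LY19Y646F, with quartiles of 1.65 and 2.22 against 1.91 and 2.71. ChIP reads over input reads, divided by the library ratio, gave folds of 3.71 (3.56 to 3.87) at HOXC, 3.17 (3.003 to 3.34) at HOXB and 1.66 (1.36 to 2.05) at HOXA in LY19WT. In LY19Y646F they were 2.41 (2.25 to 2.58), 2.2 (2.09 to 2.32) and 1.94 (1.72 to 2.19), and 2.10 (1.70 to 2.61) at HOXD. In LY19WT the 3 intervals did not overlap. In LY19Y646F the interval of HOXA overlapped that of HOXB but not that of HOXC, those of HOXB and HOXC overlapped, and the interval of HOXD overlapped the other 3.

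**Figure D4:**
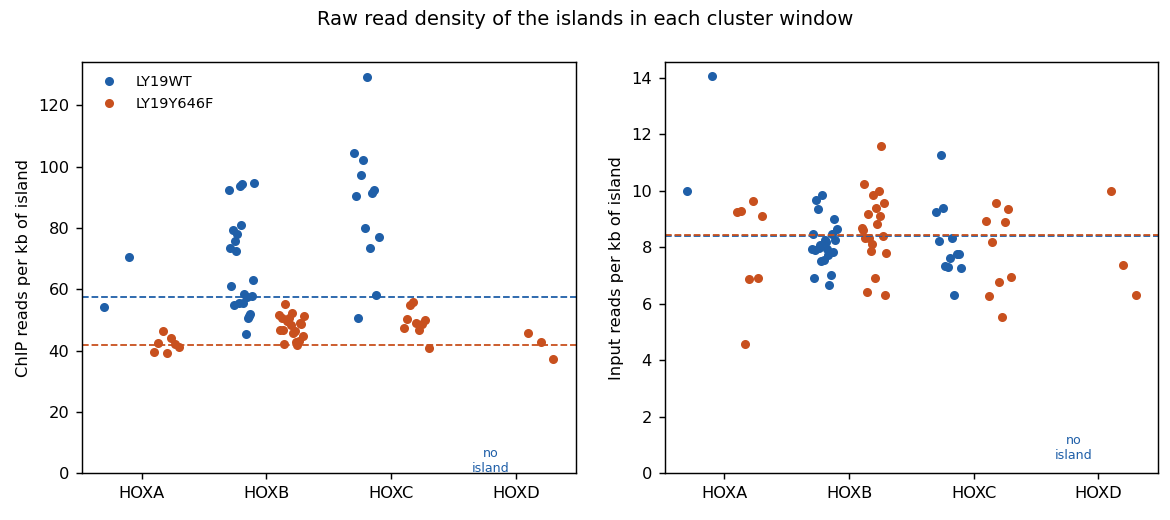
Raw ChIP reads per kb (left) and input reads per kb (right) of every island in the 4 windows, with 1 point per island. Dashed lines give the median of ChIP density over all islands and of input density over autosomal islands of each line. LY19WT islands of HOXB and HOXC spread up to 129 ChIP reads per kb and those of LY19Y646F stay between 41.0 and 55.7, and the highest input density, 14.1, belongs to a LY19WT island of HOXA.

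Between the lines, enrichment over input was lower in LY19Y646F at HOXB and HOXC. The log2 ratio of LY19Y646F to LY19WT was -0.52 (-0.63 to -0.42) at HOXB and -0.63 (-0.74 to -0.51) at HOXC, and 0.22 (-0.12 to 0.55) at HOXA, where the interval includes 0. No ratio exists at HOXD. Over 7190 windows of 140 kb with islands in both lines the median was -0.33, with quartiles of -0.55 and -0.10, so HOXB and HOXC lay near the lower quartile, and 93.3% of windows lay at or below HOXA. Over the 946 windows covered by at least 50% in both lines the median was -0.42, and 34.7% and 20.3% of them lay at or below HOXB and HOXC. Both sets of windows measured 140 kb, whereas the HOXB window measures 220 kb, so its rank is set against shorter windows. The direction depends on the measure. With ChIP density scaled by total ChIP reads in islands, which leaves input out, the ratios were 0.39 at HOXB, 0.10 at HOXC and 0.43 at HOXA.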

How the data were processed

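Per the submitters' processing notes, the data were processed on hg19 with Bowtie2 2.2.9 and SAMtools 1.3.1 and with SICER and bedtools, both without a version. Per the labels, islands of each line were called on merged replicates against the input of that line at an FDR of 0.001. To find broad marks, SICER merges neighbouring enriched windows into islands across short gaps. Per the file headers, the deposited values of an island are raw counts of ChIP and input reads, a p-value, a fold (a linear ratio) and an FDR. The ratio of ChIP to input counts, over the deposited fold, was 3.07 in LY19WT and 2.62 in LY19Y646F, within 0.001 for 100% of islands, and is called the library ratio. Fold and FDR were computed by the authors, and those of single islands were ranked within a list only. Through the library ratio the fold also enters the log2 ratios between lines.

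Cover is the length of islands inside a window, in 1-based hg19 positions. Folds of windows used summed reads of whole islands, with 95% Clopper-Pearson intervals of the ChIP share. Intervals of log2 ratios came from the standard error of the logged counts. Both cover counting error only, and reads without molecular identifiers are not independent molecules. Genome windows tiled each autosome over the span of its islands, assembly gaps included. Densities are reads per kb of island. FDR, p-value and rank implied 59626 to 60292 tested islands in LY19WT and 49672 to 50006 in LY19Y646F, where a complete ranking gives about 1 value per list. Depths of the merged libraries are not known beyond the reads in islands.

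Python 3.11.15 was used with scipy 1.17.1, pandas 2.3.3, numpy 2.4.6 and matplotlib 3.10.9, and the calculations were tested on simulated islands with planted cover. The clusters, lists and windows were chosen with earlier results of these data known. The rule for naming took every island of a window, the widest island of a flank, the HOX genes and their neighbours, and for display the promoters at cluster ends and with the highest and lowest CpG ratio. Alternatives were an FDR of at most 1e-10, joining islands across up to 5 kb, windows shortened by 10 kb at each end, flanks of 100 and 500 kb, limits of 25% and 75% cover, a shorter LY19WT list (islands of lowest p-value, as many as match the length covered in LY19Y646F), and other scalings.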

Additional observations from a re-analysis of the deposited data

How the results depend on the processing

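No paired analysis was possible because each line has 1 list of merged replicates, and for the same reason no replicate could be left out. The order of cover, with HOXB and HOXC above HOXA and HOXD in each line, and the higher cover of all 4 windows in LY19Y646F held under every list and window setting tried. For the shortened LY19WT list the higher cover in LY19Y646F was fixed by construction, since that list can only lose LY19WT cover. Without that setting, the difference ran from 11.5 to 24.7 percentage points at HOXA and 15.9 to 21.2 at HOXB. It ran from 2.50 to 10 at HOXC and 9.17 to 14 at HOXD. With the shortened list it was 28.7, 35.9, 16.4 and 11.7 points. At an FDR of at most 1e-10, cover was 4.57% (HOXA, LY19WT), 78.5% (HOXB, LY19Y646F) and 9.17% (HOXD, LY19Y646F). With gaps of up to 5 kb joined, HOXB was covered to 78.4% and 94.6% and HOXC to 88.9% and 96.3% in LY19WT and LY19Y646F. With shortened windows, HOXA was covered to 19.0% in LY19Y646F and HOXC to 79.8% in LY19WT. In the LY19WT list shortened by p-value to the length under LY19Y646F islands, HOXA was covered to 0%, HOXB to 47.7% and HOXC to 66.9%, by construction from fewer islands.

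Flanks of 100 kb were covered to 2.10% (HOXA), 72.5% (HOXB) and 83.1% (HOXC) in LY19WT and to 81.1% (HOXB), 59.1% (HOXC) and 20.9% (HOXD) in LY19Y646F. Flanks of 500 kb were covered to 35.6% (HOXC) in LY19WT and to 28.0% (HOXA), 60.2% (HOXB), 33.9% (HOXC) and 19.98% (HOXD) in LY19Y646F. The log2 ratio turned to 0.39 at HOXB and 0.10 at HOXC, and was 0.43 at HOXA, when ChIP density was scaled by total ChIP reads in islands. This measure leaves input out, and the total falls with a shorter list. Without the library ratio the log2 ratio of ChIP over input was -0.75 at HOXB, -0.86 at HOXC and -0.012 at HOXA. A limit of 25% in place of 50% gave 6967, 5996 and 3954 windows of 120, 140 and 220 kb in LY19WT and 5009, 4295 and 2765 in LY19Y646F. A limit of 75% gave 1870, 1524 and 783, and 705, 561 and 249. By construction a lower limit takes more windows. Depth limits single islands: the HOXA island with 111 ChIP and 11 input reads has a fold interval of 2.07 to 7.94, so the order of such islands cannot be read.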
